A study of Mus musculus with 40 samples.

Results

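Ribosome-bound RNA of hippocampal astrocytes was compared between stress-susceptible mice and mice that were never defeated. The comparison used 8 of the 40 libraries of the series, all those labelled hippocampus stressed (5) or control (3), and its fold changes, list medians and counts are given with and without stressed libraries 2 and 3. All mice were adult and carried the transgene Tg(Aldh1l1-EGFP/Rpl10a)JD130Htz, in which the promoter of Aldh1l1 drives the ribosomal protein Rpl10a fused to EGFP. Tagged ribosomes were pulled from the dissected tissue with antibodies against EGFP, a method called translating ribosome affinity purification (TRAP), so that the counts show RNA bound to ribosomes and not total RNA. The stressed mice had 10 days of social defeat with 10 minutes of daily contact with a CD1 aggressor, lived behind a divider from it for the rest of the day, and then scored below 1 on a social interaction index. The controls were housed in groups of 2 to 3 in the same room, had no defeat and scored above 1. A further 3 hippocampal libraries came from resilient mice, defeated in the same way but scoring above 1, and are shown beside the main comparison. They also entered the main fit, where they shared the filter on low counts and the estimate of spread. Tissue was taken 2 days after the last defeat in every group, and each library pooled hippocampi of 2 mice. The sex of the mice is not given in the sources used here.

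Astrocytes take up the glutamate that neurons release, buffer potassium, share ions and metabolites through gap junctions and secrete proteins that build or prune synapses. They carry a circadian clock and receptors for glucocorticoids, the steroid hormones that rise during stress. The hippocampus is rich in those receptors, and repeated social defeat is a much used model of depression-like behaviour in mice.

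The hippocampal libraries held 21772362 to 30302385 counts in genes. Defining astrocyte markers were high in all of them. Gfap, an intermediate filament of astrocytes, lay at 6386, 8040.2 and 6321 CPM (a gene's counts relative to the composition-corrected size of its library) in controls 1 to 3 and at 7951, 5283, 4491, 3426 and 6525 in stressed libraries 1 to 5. Aldh1l1, whose promoter drives the tag, lay at 583, 322 and 476 CPM in the controls and at 549.5, 365, 327, 618 and 456 in the stressed libraries, so that the groups overlapped. Rpl10a, which is counted together with the tag, lay at 186, 123 and 101 CPM in the controls and at 134, 76.1, 73.8, 179 and 148 in the stressed libraries, lowest in stressed 2 and 3.

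The libraries of a group differed among themselves in ways that the labels do not give. Stressed 2 and 3 correlated at 0.992 with each other in log2 CPM and at 0.915 to 0.977 with the other 9 libraries. Those 9 correlated at 0.931 to 0.989 among themselves. Control 3 was the nearest to stressed 2 and 3, at 0.977 and 0.973, and it was kept where those 2 were left out. Stressed 2 and 3 carried more of the long transcripts than any other library. This was measured by the Spearman correlation, across genes, of a gene's deviation from its mean with transcript length. It was -0.39 to 0.19 in the other libraries and 0.44 and 0.54 in stressed 2 and 3. Their counts still differed beyond sampling noise, with a chi-square of 14.6 per degree of freedom, against 67.9 to 293 for the other pairs of stressed libraries. Stressed 4 and 5, like control 1, were high in Apoe, the astrocyte apolipoprotein, which lay at 18138, 5309.7 and 5909.6 CPM in controls 1 to 3 and at 6418, 5396, 5368, 22359 and 20331 in stressed libraries 1 to 5. Markers of the choroid plexus, the fluid-secreting tissue of the ventricles, split both groups. Ttr, its most abundant transcript, lay at 48.4, 7298 and 6603 CPM in the controls and at 162, 6272, 9079.5, 50.8 and 10556 in the stressed libraries, high in controls 2 and 3 and in stressed 2, 3 and 5. Resilient libraries lay between, at 831, 1793 and 426 CPM. By the index sequences in the library names, all 3 controls shared a second index that no stressed or resilient library had. Index and group therefore cannot be told apart when either defeated group is set against the controls.

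**Figure D1:**
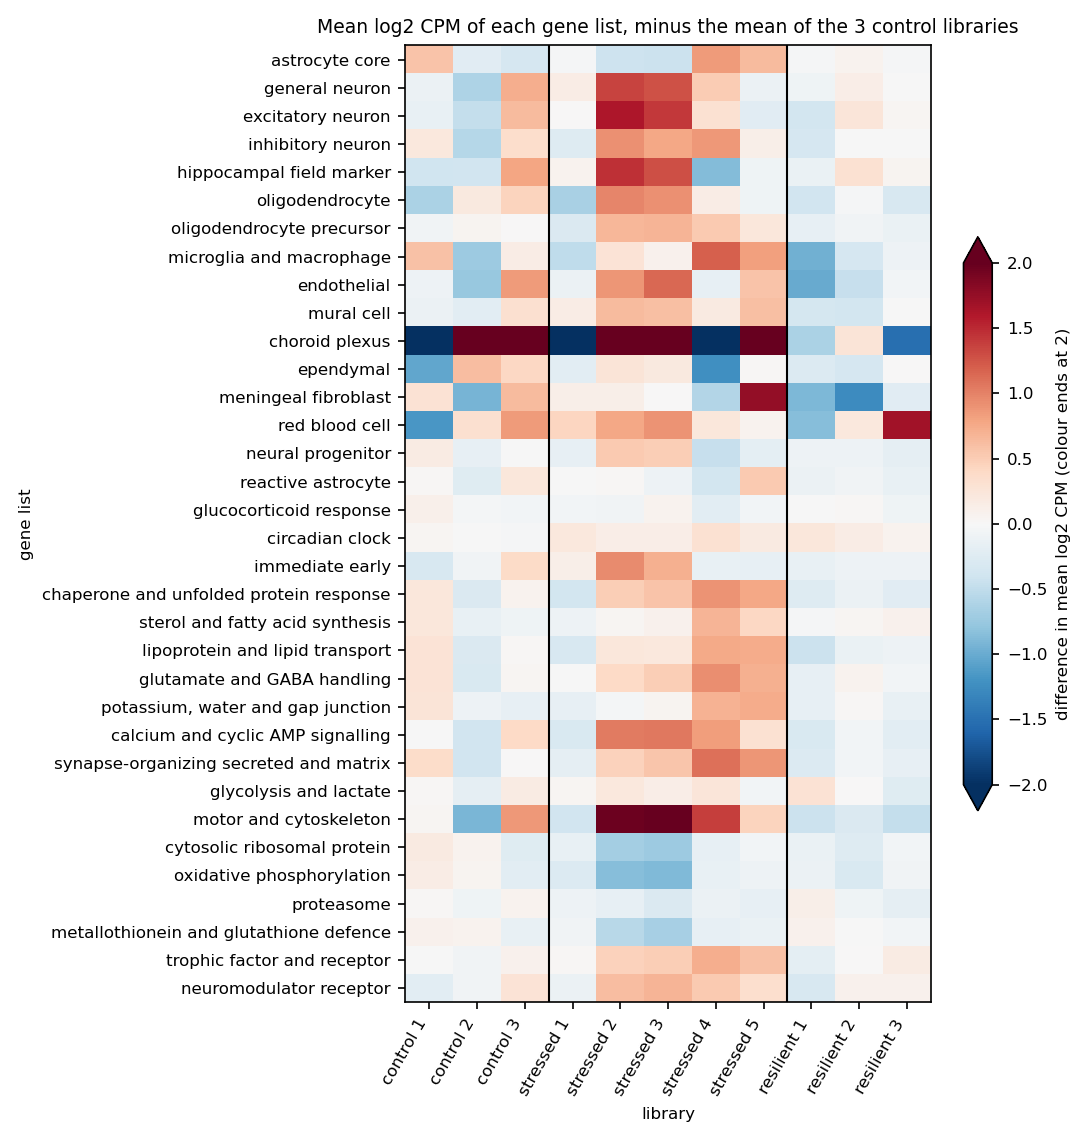
Mean log2 CPM of 34 gene lists (rows) in each of the 11 hippocampal libraries (columns), minus the mean of the 3 control libraries; red is higher, blue lower, and the colour ends at 2. Stressed 2 and 3 stand out in the general and excitatory neuron lists, stressed 4 and 5 in the astrocyte core and potassium lists, stressed 2 to 5 in the glutamate list, stressed 2 to 4 in the motor list, and the choroid plexus list splits controls as well as stressed libraries.

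No gene passed the test between stressed and control hippocampus. By edgeR's quasi-likelihood test with Benjamini-Hochberg adjustment, 0 of 15758 genes (0%) had an adjusted p under 0.05, and the smallest adjusted p was 0.525. At an unadjusted p under 0.05 there were 1312 genes. DESeq2 also called 0, with 1710 at that unadjusted p. These fits included the 3 resilient libraries. With only the 8 stressed and control libraries edgeR called 0 of 15569 genes, with 735 at that unadjusted p. Without stressed 2 and 3, 0 of 15499 genes (0%) passed by edgeR, with a smallest adjusted p of 0.937 and 520 genes at an unadjusted p under 0.05, and 0 by DESeq2, with 703. Within the libraries whose names give the region in a long form (controls 2 and 3, stressed 1 to 3) edgeR called 0, with 414 at the unadjusted p, and within those with a short form (control 1, stressed 4 and 5) 0, with 1018. The standard error of a gene's log2 fold change had a median of 0.27 with all libraries and ran from 0.15 to 0.69 between the 5th and 95th percentiles of genes, so the fold changes below are described and not called. The libraries without stressed 2 and 3 are called the reduced set. Fold changes are stressed minus control throughout, on the log2 scale, and p-values beside single genes are unadjusted.

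These shares over all genes are the background for every count below. At an unadjusted p under 0.05, 840 genes (5.33%) were higher and 472 (3%) lower in stressed libraries. In the fit without stressed 2 and 3, 376 (2.43%) were higher and 144 (0.929%) lower. The total of 1312 hung on single libraries: it was 325 without control 2, 592 without stressed 3, 659 without stressed 2, 2117 without control 3 and 3038 without stressed 1, with 0 called by edgeR each time. All 5 stressed libraries lay above all 3 controls for 180 genes (1.14%) and below them for 327 (2.08%). The 3 others without stressed 2 and 3 lay above all controls for 454 genes (2.88%) and below for 432 (2.74%). 280 genes had an unadjusted p under 0.05 in the same direction with and without the 2 libraries.

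The genes with the smallest p on the higher side were chosen for that p, so their values are a description. Cdh22, a cadherin that binds cells to each other (chr2:165111501-165234924 on GRCm38.p6, as are the coordinates below), lay at 5.0001, 5.13 and 6.56 CPM in the controls and at 8.02, 14.8, 11.5, 18.8 and 11.3 in the stressed libraries. Cdh22 had a log2 fold change of 1.21 ± 0.27 (SE, unadjusted p = 0.0011) and of 1.18 ± 0.31 in the reduced set (unadjusted p = 0.0036). Every stressed library was above every control. Slc17a6, the vesicular glutamate transporter VGLUT2 of excitatory neurons (chr7:51621830-51671126), lay at 2.88, 2.99 and 3.28 CPM in the controls and at 7.68, 8.83, 7.02, 6.97 and 4.02 in the stressed libraries. Slc17a6 had a log2 fold change of 1.18 ± 0.27 (SE, unadjusted p = 0.0012) and of 1.02 ± 0.30 in the reduced set (unadjusted p = 0.0074). The groups again did not overlap, and the resilient libraries lay below all controls at 2.47, 2.39 and 1.61 CPM. Zfp9, a zinc finger protein, was nearly the same in the 3 controls, at 5.68, 5.76 and 5.76 CPM, and lay at 7.68, 9.30, 10.3, 8.93 and 8.74 in the stressed libraries. Zfp9 had a log2 fold change of 0.65 ± 0.17 (SE, unadjusted p = 0.0027) and of 0.55 ± 0.19 in the reduced set (unadjusted p = 0.014). Robo1, a receptor for the guidance protein Slit, lay at 3.64, 1.83 and 5.45 CPM in the controls and at 5.27, 11.3, 12.9, 10.6 and 12.3 in the stressed libraries (log2 fold change 1.53 ± 0.37 (SE), unadjusted p = 0.0022; reduced set 1.35 ± 0.42, unadjusted p = 0.01), where stressed 1 fell within the range of the controls. Adgrl3, an adhesion receptor of synapses, had the same form, at 10.2, 6.53 and 7.98 CPM in the controls and 9.09, 16.9, 20.8, 23.9 and 23.5 in the stressed libraries. Adgrl3 had a log2 fold change of 1.19 ± 0.29 (SE, unadjusted p = 0.0019) and of 1.17 ± 0.33 in the reduced set (unadjusted p = 0.0055).

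With stressed 2 and 3 left out, other genes had the smallest p on the higher side. Heyl, a repressor induced by Notch, lay at 45.4, 30.1 and 31.1 CPM in the controls and at 67.5, 60.99 and 104 in stressed 1, 4 and 5 (reduced set log2 fold change 1.11 ± 0.25, unadjusted p = 0.0012). Stressed 2 and 3 lay at 19.1 and 23.7. Lhcgr, the receptor of luteinizing hormone, was rare, at 1.00, 1.01 and 1.02 CPM in the controls and 1.68, 0.901, 0.934, 4.23 and 4.18 in the stressed libraries, of which stressed 4 and 5 were the highest (reduced set log2 fold change 1.71 ± 0.37, unadjusted p = 0.001). P4ha3, an enzyme of collagen folding, lay at 23.3, 20.1 and 18.1 CPM in the controls and 27.2, 17.9, 13.3, 39.4 and 35.8 in the stressed libraries (reduced set log2 fold change 0.72 ± 0.18, unadjusted p = 0.0025). For these 3 genes stressed 2 and 3 lay below all controls, and the log2 fold changes with all libraries were 0.63 ± 0.46 for Heyl, 1.23 ± 0.53 for Lhcgr and 0.38 ± 0.31 for P4ha3. Mid2, a ubiquitin ligase that binds microtubules, and Nebl, which encodes the actin-binding nebulette, differed less between the 2 fits. Mid2 lay at 10.9, 9.80 and 8.51 CPM in the controls and 14.4, 10.8, 17.2, 16.8 and 16.8 in the stressed libraries, with log2 fold changes of 0.64 ± 0.19 and 0.71 ± 0.18 with and without stressed 2 and 3. Nebl lay at 38.5, 40.6 and 36.2 CPM and 53.1, 39.4, 60.4, 63.6 and 64.02, with 0.55 ± 0.18 and 0.64 ± 0.16, and only stressed 2 was within the range of the controls.

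On the lower side the smallest p belonged to genes of enzymes and small regulators. Churc1, a zinc-binding transcriptional regulator (chr12:76765538-76783180), lay at 135, 147 and 169 CPM in the controls and at 120.5, 81.6, 75.7, 85.99 and 103 in the stressed libraries. Churc1 had a log2 fold change of -0.69 ± 0.17 (SE, unadjusted p = 0.0017) and of -0.55 ± 0.16 in the reduced set (unadjusted p = 0.0072). Prdx5, a peroxiredoxin that removes peroxides in mitochondria and peroxisomes (chr19:6906697-6910106), lay at 559, 622 and 556 CPM in the controls and at 443, 357, 344, 397 and 484 in the stressed libraries. Prdx5 had a log2 fold change of -0.52 ± 0.15 (SE, unadjusted p = 0.0054) and of -0.40 ± 0.13 in the reduced set (unadjusted p = 0.013). For both, all stressed libraries were below all controls. Exons of Churc1 overlap those of Fntb on the same strand and exons of Prdx5 those of Trmt112 on the opposite strand, and whether reads were counted by strand is not given in the sources used here, so part of these counts is uncertain. Rbks, the ribokinase, lay at 7.28, 9.02 and 8.60 CPM in the controls and at 5.43, 5.59, 5.24, 4.88 and 6.21 in the stressed libraries. Rbks had a log2 fold change of -0.60 ± 0.17 (SE, unadjusted p = 0.0045) and of -0.60 ± 0.20 in the reduced set (unadjusted p = 0.013). Phyhd1, a dioxygenase, lay at 84.3, 89.7 and 72.4 CPM and 68.1, 43.3, 44.4, 38.9 and 52.2. Phyhd1 had a log2 fold change of -0.73 ± 0.20 (SE, unadjusted p = 0.0033) and of -0.64 ± 0.23 in the reduced set (unadjusted p = 0.02). Ccdc163 lay at 2.64, 2.99 and 3.10 CPM and 1.76, 1.91, 1.60, 1.44 and 1.82. Ccdc163 had a log2 fold change of -0.77 ± 0.21 (SE, unadjusted p = 0.0033) and of -0.81 ± 0.25 in the reduced set (unadjusted p = 0.0096). The groups did not overlap for these 3 genes either. Prmt1, the main arginine methyltransferase for histones and RNA-binding proteins, lay at 95.5, 97.2 and 117 CPM and 84.4, 90.1, 81.99, 77.5 and 73.9, again without overlap. Prmt1 had a log2 fold change of -0.34 ± 0.13 (SE, unadjusted p = 0.019) and of -0.40 ± 0.13 in the reduced set (unadjusted p = 0.012). Rilp, which links late endosomes to dynein, lay at 10.2, 20.7 and 16.6 CPM and 7.68, 8.94, 13.1, 6.49 and 11.3, with stressed 3 and 5 within the range of the controls. Rilp had a log2 fold change of -0.73 ± 0.27 (SE, unadjusted p = 0.018) and of -0.91 ± 0.28 in the reduced set (unadjusted p = 0.0094).

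**Figure D2:**
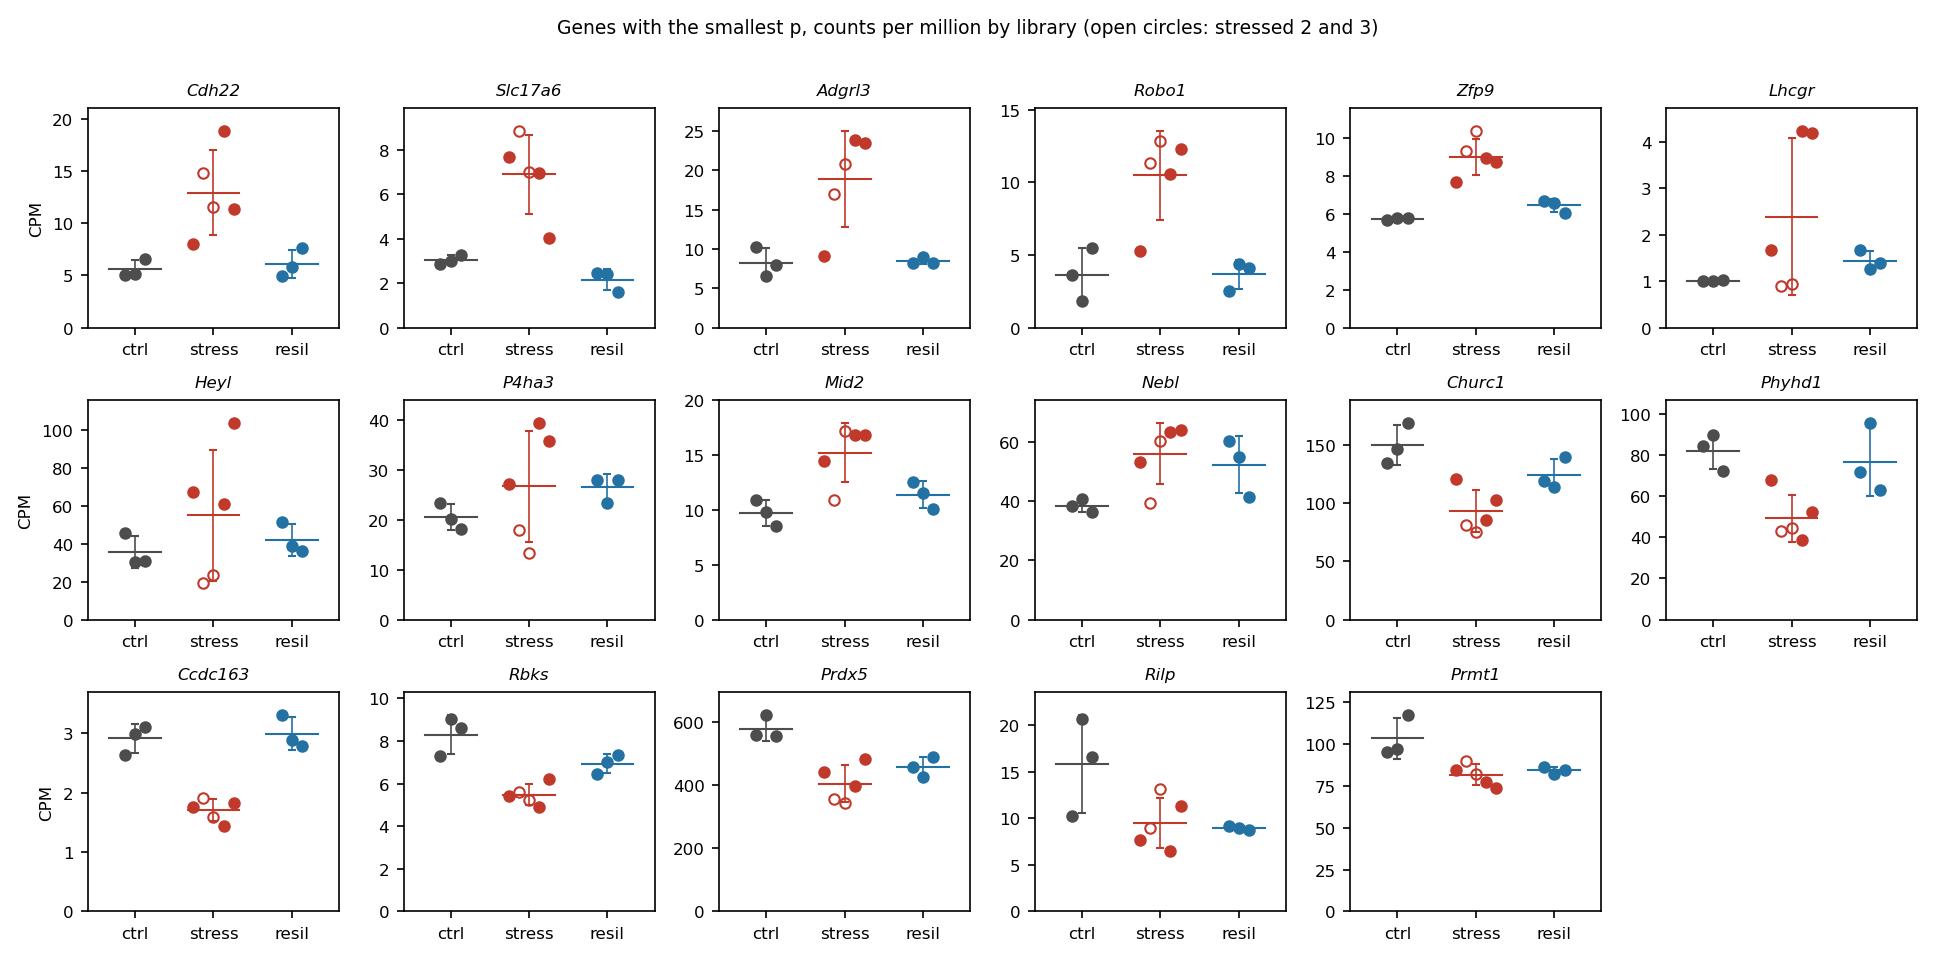
CPM (y axis, from 0) of the 17 genes with the smallest unadjusted p in either direction, with and without stressed 2 and 3, in control, stressed and resilient libraries; each circle is 1 library, open circles are stressed 2 and 3, and bars give the mean ± SD. Cdh22, Slc17a6 and Zfp9 lie above all controls in all 5 stressed libraries, Heyl, Lhcgr and P4ha3 do so only in stressed 1, 4 and 5, and 6 of the 7 lower genes, all but Rilp, lie below all controls.

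On average, astrocyte core genes and genes that buffer potassium were highest in stressed 4 and 5. The mean log2 CPM of the core list was 9.76, 8.95 and 8.84 in the controls and 9.17, 8.77, 8.76, 10.03 and 9.81 in the stressed libraries, so that control 1 was also high. Of the 24 astrocyte core genes tested, 16 had a positive log2 fold change, with a median of 0.14; without stressed 2 and 3 it was 21 of them, with a median of 0.48. Control 1 and stressed 4 and 5 are the libraries of the short name form, 1 of 3 controls and 2 of 3 stressed libraries in the reduced set; the median was 0.0085 within the long form, 0.13 within the short form and 0.071 with the form as a covariate. The medians over all genes were 0.049 and -0.017. Slc1a2, the main glutamate transporter GLT-1, lay at 2101, 678 and 562 CPM in the controls and at 758, 799.6, 890.2, 2951 and 2294 in the stressed libraries: control 1 and stressed 4 and 5 were high and the rest lay between 562 and 890.2. Gja1, which encodes the gap junction protein connexin 43, lay at 705, 355 and 395 CPM and 469, 412, 517, 1239 and 1052. Gja1 had a log2 fold change of 0.60 ± 0.38 (SE, unadjusted p = 0.14) and of 0.91 ± 0.35 in the reduced set (unadjusted p = 0.026). Aqp4, the water channel of astrocyte endfeet, lay at 357, 204 and 185 CPM and 238, 202, 263, 605 and 555. Aqp4 had a log2 fold change of 0.58 ± 0.37 (SE, unadjusted p = 0.15) and of 0.89 ± 0.33 in the reduced set (unadjusted p = 0.024). Stressed 4 and 5 were the highest of the 8 libraries in all 3 genes. Not every core gene had this form: by the values given above, Gfap was lowest of the 8 libraries in stressed 4. Aldh1l1 in stressed 5 was within the range of the controls.

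Glutamate and GABA handling lay above the controls in 4 stressed libraries. The mean log2 CPM of the list was 6.80, 6.23 and 6.56 in the controls and 6.52, 6.93, 7.02, 7.46 and 7.24 in the stressed libraries, with stressed 4 and 5 the highest and stressed 1 within the range of the controls. Slc6a11, the astrocyte GABA transporter GAT-3, lay at 187, 91.1 and 79.8 CPM in the controls and at 121, 112, 145, 461 and 322 in the stressed libraries. Slc6a11 had a log2 fold change of 0.96 ± 0.47 (SE, unadjusted p = 0.072) and of 1.32 ± 0.44 in the reduced set (unadjusted p = 0.014). Gabbr2, a subunit of the GABA-B receptor, had the smallest p of the glutamate and GABA list, at 35.1, 16.8 and 39.4 CPM and 27.8, 87.95, 97.4, 124 and 62.5. Gabbr2 had a log2 fold change of 1.39 ± 0.40 (SE, unadjusted p = 0.0071) and of 1.22 ± 0.46 in the reduced set (unadjusted p = 0.027). Stressed 2 to 5 were above all controls for Gabbr2, and stressed 1 was within their range. Of the 20 genes of that list, 1 had an unadjusted p under 0.05 and was higher (5%, against 5.33% of all genes); without stressed 2 and 3 it was 6 of 19 (31.6%, against 2.43%). The list median was 0.50 and 0.71, and it was 0.34 within the long and 0.55 within the short name form. None of its members separated the groups with or without the 2 libraries.

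Potassium and ion handling genes had a list mean of 6.70, 6.34 and 6.28 in the controls and 6.27, 6.40, 6.50, 7.14 and 7.19 in the stressed libraries. Kcnj16, the potassium channel subunit Kir5.1, lay at 70.5, 36.1 and 35.3 CPM in the controls and at 53.3, 33.8, 49.9, 142 and 137 in the stressed libraries (log2 fold change 0.81 ± 0.45 (SE), unadjusted p = 0.10; reduced set 1.21 ± 0.36, unadjusted p = 0.0076), with stressed 4 and 5 the highest. Slc4a4, the sodium bicarbonate cotransporter, belongs to the astrocyte core list and not to this one. It lay at 216, 110.4 and 118 CPM and 153, 156, 206, 362 and 330.3. Slc4a4 had a log2 fold change of 0.70 ± 0.32 (SE, unadjusted p = 0.057) and of 0.91 ± 0.33 in the reduced set (unadjusted p = 0.02). Clcn2, a chloride channel that partners with GlialCAM, lay at 25.6, 15.2 and 23.4 CPM and 20.6, 39.8, 33.7, 37.6 and 30.9 (log2 fold change 0.60 ± 0.23 (SE), unadjusted p = 0.024; reduced set 0.46 ± 0.25, unadjusted p = 0.093), and Fam131a overlaps its exons on the opposite strand. Dag1, dystroglycan, which anchors the endfoot to the basement membrane, lay at 68.2, 33.9 and 47.99 CPM and 45.3, 66.3, 82.7, 119 and 105. Dag1 had a log2 fold change of 0.74 ± 0.30 (SE, unadjusted p = 0.035) and of 0.83 ± 0.34 in the reduced set (unadjusted p = 0.036). In Clcn2, stressed 2 to 5 were above all controls; in Dag1, stressed 3 to 5 were. Of 20 genes in the list, 2 were higher at an unadjusted p under 0.05 (10%, against 5.33% of all genes), and 5 (25%, against 2.43%) without stressed 2 and 3. Hapln1, a link protein of the matrix around synapses, is also a gene of the astrocyte core list. It lay at 19.2, 12.99 and 12.8 CPM and 15.7, 14.5, 14.4, 46.2 and 29.7, again highest in stressed 4 and 5. Hapln1 had a log2 fold change of 0.68 ± 0.38 (SE, unadjusted p = 0.10) and of 1.01 ± 0.33 in the reduced set (unadjusted p = 0.013). The median of the potassium list was 0.30 and 0.47, 0.18 within the long and 0.31 within the short name form. A different number of cells of a type and a different amount of RNA per cell cannot be told apart in these pooled libraries, here and in the results that follow.

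**Figure D3:**
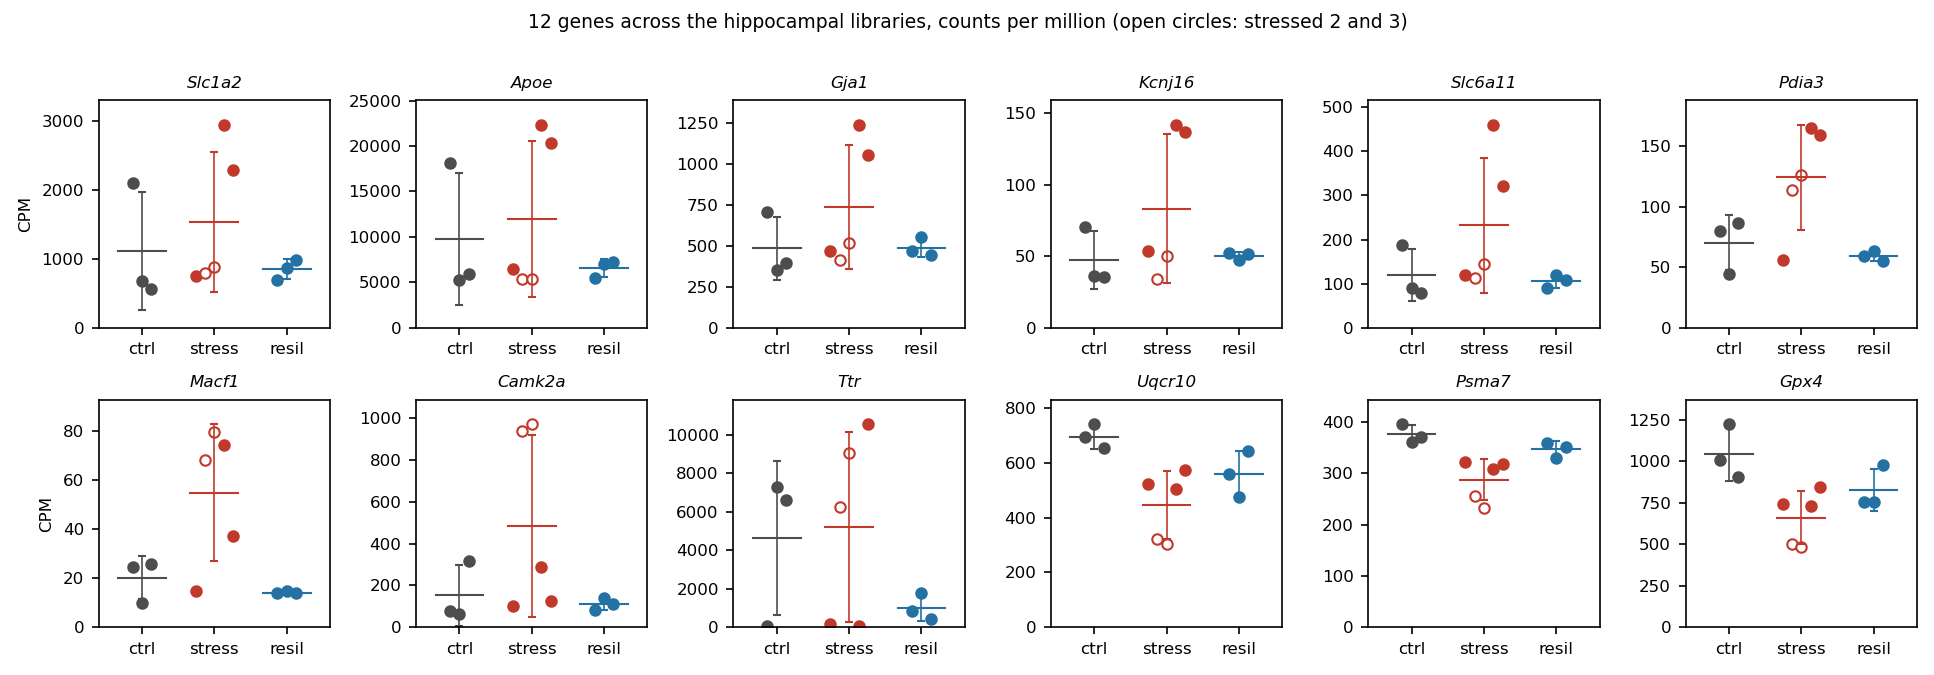
CPM (y axis, from 0) of 12 genes in control, stressed and resilient libraries; each circle is 1 library, open circles are stressed 2 and 3, and bars give the mean ± SD. Slc1a2, Apoe, Gja1, Kcnj16 and Slc6a11 are high in stressed 4 and 5, Camk2a in stressed 2 and 3, Ttr in controls 2 and 3 and stressed 2, 3 and 5, and Uqcr10, Psma7 and Gpx4 are below all controls in all 5 stressed libraries.

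The circadian clock genes formed the 1 list of 34 whose mean level was higher in every stressed library than in every control. How many of 34 lists would separate by chance was not tested. In the clock, the activators Arntl and Clock switch on Per, Cry and Nr1d genes, whose proteins feed back on the activators, and output genes such as Dbp, Hlf and Ciart through a DNA element called the E-box. The mean log2 CPM of the 21 genes was 5.75, 5.69 and 5.68 in controls 1 to 3, 5.92, 5.85, 5.85, 6.01 and 5.89 in stressed libraries 1 to 5 and 5.93, 5.86 and 5.78 in the resilient libraries, which were also above all controls. The distance between the groups was small: the median log2 fold change was 0.22, with 17 of 21 genes positive, and 0.19 with 18 positive without stressed 2 and 3. With each library's trend on transcript length removed the median was 0.0085. Within the libraries of the long name form the median was 0.16, and within those of the short form 0.18. The hour of dissection is not given in the sources used here, and its part in these values was not tested.

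The clock genes that set stressed 1, 4 and 5 apart were outputs and repressors. Without stressed 2 and 3, 8 of 21 (38.1%) were above all controls in every stressed library, against 2.88% of all genes, and 5 (23.8%) were higher at an unadjusted p under 0.05, against 2.43%. With all libraries the counts were 1 (4.76%, against 1.14%) and 2 (9.52%, against 5.33%). The 8 genes were Ciart, Nr1d1, Nr1d2, Dbp, Hlf, Bhlhe40, Bhlhe41 and Cry2, and the last was the 1 gene that separated all 5 stressed libraries. Cry2, a core repressor, lay at 188, 179 and 202 CPM in the controls and at 230.3, 230.3, 235, 246 and 224 in the stressed libraries. Cry2 had a log2 fold change of 0.30 ± 0.16 (SE, unadjusted p = 0.086) and of 0.29 ± 0.17 in the reduced set (unadjusted p = 0.12).

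Ciart, which encodes the repressor CHRONO, lay at 16.8, 11.9 and 18.96 CPM in the controls and at 27.8, 21.1, 15.4, 27.9 and 23.6 in the stressed libraries. Ciart had a log2 fold change of 0.55 ± 0.22 (SE, unadjusted p = 0.034) and of 0.73 ± 0.20 in the reduced set (unadjusted p = 0.0043). Stressed 3 was within the range of the controls. Nr1d2, the nuclear receptor REV-ERB beta, lay at 67.2, 73.4 and 76.8 CPM and 89.9, 72.5, 108, 118 and 109 (log2 fold change 0.46 ± 0.17 (SE), unadjusted p = 0.02; reduced set 0.53 ± 0.14, unadjusted p = 0.0036), where stressed 2 was within the range of the controls. Dbp, a transcription factor that reads out the clock, lay at 272, 227 and 232 CPM and 344, 211, 174, 336 and 327. Dbp had a log2 fold change of 0.19 ± 0.23 (SE, unadjusted p = 0.42) and of 0.45 ± 0.13 in the reduced set (unadjusted p = 0.007). Here stressed 1, 4 and 5 were above and stressed 2 and 3 below every control. Hlf, a relative of Dbp, lay at 145, 136 and 108 CPM and 166, 116, 114, 174 and 155, with 0.34 ± 0.15 without stressed 2 and 3. Bhlhe41, a repressor that competes for the E-box, lay at 47.1, 36.3 and 34.5 CPM and 49.5, 30.6, 27.3, 49.1 and 51.8, with 0.34 ± 0.15 without them. Its relative Bhlhe40 and Nr1d1, REV-ERB alpha, gave 0.43 ± 0.19 and 0.30 ± 0.19 in that fit. In Hlf, Bhlhe40, Bhlhe41 and Nr1d1, too, stressed 1, 4 and 5 were above all controls and stressed 2 and 3 were not. With all libraries and the length trend removed, the log2 fold changes of Hlf and Bhlhe41 turned to -0.11 and -0.19. Arntl, the activator BMAL1, lay the other way, at 59.1, 73.9 and 69.8 CPM in the controls and 69.2, 60.8, 54.3, 48.9 and 59.3 in the stressed libraries (log2 fold change -0.21 ± 0.20 (SE), unadjusted p = 0.31; reduced set -0.20 ± 0.23, unadjusted p = 0.41), with overlap. Per2, which also answers to glucocorticoids, was highest in stressed 2 and 3, at 8.28, 7.74 and 13.1 CPM in the controls and 10.8, 22.6, 22.2, 11.8 and 10.2 in the stressed libraries. Per2 had a log2 fold change of 0.68 ± 0.32 (SE, unadjusted p = 0.06) and of 0.17 ± 0.24 in the reduced set (unadjusted p = 0.51). Exons of Dbp, Nr1d1, Bhlhe40 and Cry2 overlap a counted gene on the opposite strand, Sphk2, Thra, 0610040F04Rik and D930015M05Rik in that order.

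The promoters of Ciart, Bhlhe41 and Per1 are shown because they hold the E-box and the genes differ in how they behaved: Ciart and Bhlhe41 were above all controls in stressed 1, 4 and 5, and Per1 overlapped, at 21.9, 13.1 and 20.2 CPM in the controls and 13.98, 26.999, 28.5, 21.9995 and 15.4 in the stressed libraries. Each is the 250 bases before a RefSeq start on GRCm38.p6, 5′ to 3′ on the gene's strand, with the E-box CACGTG in capitals. The motif is its own reverse complement, so 1 search reads both strands.
Ciart, minus strand of chr3:95882229-95882478: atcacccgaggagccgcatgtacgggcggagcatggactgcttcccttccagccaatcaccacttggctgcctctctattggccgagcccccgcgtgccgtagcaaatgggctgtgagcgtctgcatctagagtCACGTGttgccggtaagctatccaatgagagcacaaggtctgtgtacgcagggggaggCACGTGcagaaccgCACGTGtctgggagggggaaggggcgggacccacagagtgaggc
Bhlhe41, minus strand of chr6:145865421-145865670: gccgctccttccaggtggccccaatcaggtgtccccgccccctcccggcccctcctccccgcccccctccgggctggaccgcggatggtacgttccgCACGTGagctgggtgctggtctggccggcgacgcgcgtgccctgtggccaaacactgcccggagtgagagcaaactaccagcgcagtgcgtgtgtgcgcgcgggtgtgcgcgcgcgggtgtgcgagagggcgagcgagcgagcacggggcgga
Per1, plus strand of chr11:69098699-69098948: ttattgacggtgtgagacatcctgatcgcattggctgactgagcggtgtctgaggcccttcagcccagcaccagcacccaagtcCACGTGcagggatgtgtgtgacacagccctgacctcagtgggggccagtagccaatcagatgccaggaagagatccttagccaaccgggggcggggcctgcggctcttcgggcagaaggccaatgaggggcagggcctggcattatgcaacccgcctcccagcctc
Of the 21 clock genes 18 matched a promoter table entry, with 27 windows in all, and 6 of these windows, of 5 genes, held the motif (Ciart, Bhlhe41, Cry1, Per1 and Tef). Of all 32851 windows of this length 1978 held it (6.02%) and 20 held it at least 3 times, as that of Ciart did, with first bases 116, 58 and 44 bases before the start. Nr1d2, Dbp, Hlf, Nr1d1 and Cry2 had no CACGTG in these windows, which says only that these letters are not there.

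**Figure D4:**
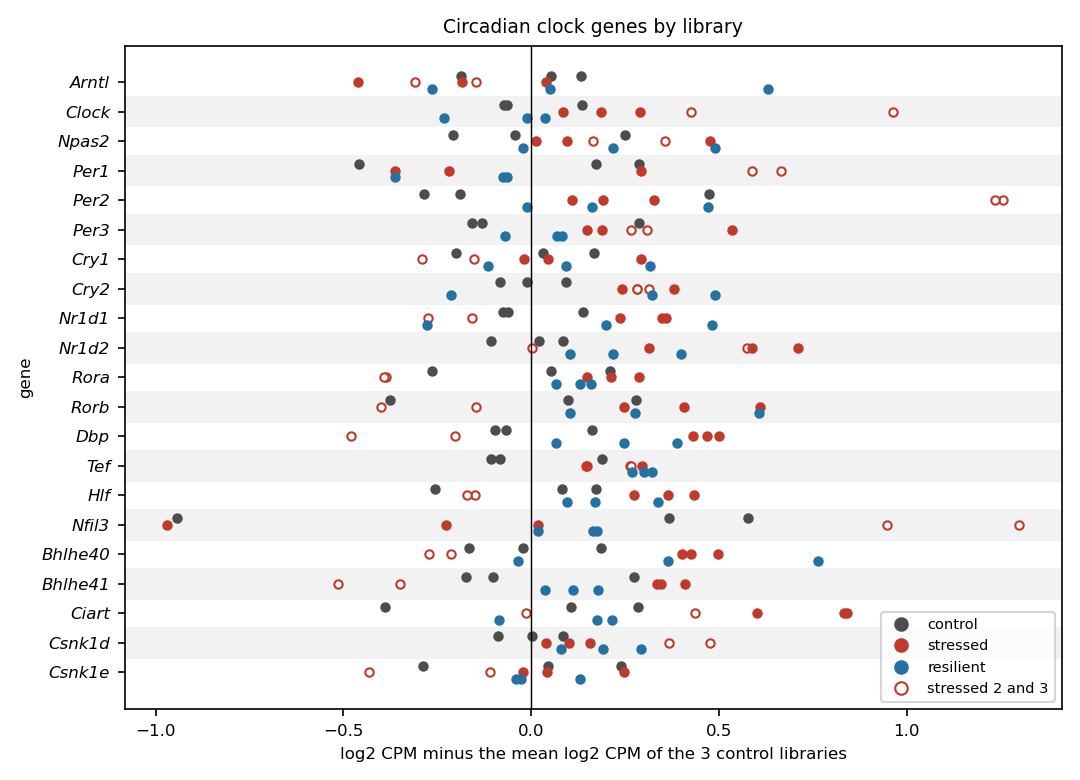
Log2 CPM of the 21 clock genes (rows) in each hippocampal library minus the mean log2 CPM of the 3 control libraries (x axis); each circle is 1 library, open red circles are stressed 2 and 3. Ciart, Dbp, Hlf, Bhlhe40, Bhlhe41 and Nr1d1 have stressed 1, 4 and 5 above all controls and at least 1 open circle that is not, and Cry2 has all 5 stressed libraries above.

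Targets of the glucocorticoid receptor did not move together. Of 22 genes tested 9 had a positive and 13 a negative log2 fold change, and the median was -0.14 (-0.12 without stressed 2 and 3). Nr3c1, the receptor itself, lay at 139, 99.8 and 95.1 CPM in the controls and 115, 89.4, 99.98, 141 and 136 in the stressed libraries. Fkbp5, the cochaperone that dampens the receptor, lay at 9.80, 14.2 and 30.04 CPM and 21.01, 50.8, 46.8, 6.93 and 18.3, and Sgk1, a kinase that the receptor induces, at 22.7, 121 and 165 and 41.9, 147, 238, 17.9 and 64.6. Both were high in control 3 and in stressed 2 and 3, and control 1 and stressed 4 were lowest in both. Tsc22d3, known as GILZ, lay at 709, 573 and 456 CPM and 639, 496, 515, 555 and 485, with overlap. The smallest p belonged to lower genes. Cebpd, a transcription factor, lay at 50.2, 53.6 and 48.1 CPM and 48.7, 36.6, 38.3, 26.9 and 38.2 (log2 fold change -0.42 ± 0.17 (SE), unadjusted p = 0.029; reduced set -0.42 ± 0.20, unadjusted p = 0.067), with stressed 1 within the range of the controls and an opposite-strand overlap with Spidr. Sult1a1, a sulfotransferase, lay at 61.3, 32.2 and 49.8 CPM and 39.01, 25.1, 25.9, 31.8 and 38.5. Sult1a1 had a log2 fold change of -0.58 ± 0.24 (SE, unadjusted p = 0.032) and of -0.40 ± 0.25 in the reduced set (unadjusted p = 0.13). Cdkn1a, the cell cycle inhibitor p21, lay at 13.9, 17.3 and 12.98 CPM and 11.3, 13.8, 12.9, 10.4 and 10.4 and was below all controls in stressed 1, 4 and 5 (reduced set log2 fold change -0.47 ± 0.18, unadjusted p = 0.025). In all, 2 of the 22 were lower at an unadjusted p under 0.05 (9.09%, against 3%) and 0 higher. In the reduced set 1 was lower (4.55%, against 0.929%) and 1 higher (4.55%, against 2.43%).

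Markers of reactive astrocytes and immediate early genes did not separate the groups as lists. Of 28 reactive astrocyte genes 17 were positive, with a median of 0.12 (0.14 without stressed 2 and 3). Of them 1, Psmb8, was lower at an unadjusted p under 0.05 (3.57%, against 3%). Psmb8, an immunoproteasome subunit, lay at 35.8, 28.5 and 27.96 CPM in the controls and 28.8, 15.9, 13.6, 13.6 and 25.5 in the stressed libraries. Psmb8 had a log2 fold change of -0.66 ± 0.26 (SE, unadjusted p = 0.025) and of -0.45 ± 0.26 in the reduced set (unadjusted p = 0.11). S100a10, a marker of the reactive state seen after ischemia, lay at 160.1, 154 and 141 CPM and 161, 80.02, 74.3, 75.4 and 137 (log2 fold change -0.52 ± 0.27 (SE), unadjusted p = 0.075; reduced set -0.29 ± 0.26, unadjusted p = 0.29), above all controls in stressed 1 and below them in the other 4. Immediate early genes had a median of 0.47 with all libraries and -0.11 without stressed 2 and 3. Jun, a subunit of AP-1, was the 1 of 20 members (5%, against 1.14% of all genes) above all controls in all 5 stressed libraries. It lay at 142, 128 and 161 CPM and 180.2, 168, 189.5, 175 and 183. Jun had a log2 fold change of 0.32 ± 0.17 (SE, unadjusted p = 0.10) and of 0.31 ± 0.19 in the reduced set (unadjusted p = 0.14).

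Chaperones of the endoplasmic reticulum lay above the controls in 4 of the 5 stressed libraries. These proteins fold secreted and membrane proteins and are induced by the unfolded protein response. The mean log2 CPM of the 25 genes was 4.86, 4.35 and 4.72 in the controls and 4.27, 5.14, 5.22, 5.54 and 5.41 in stressed libraries 1 to 5, so that stressed 1 was below every control and the other 4 above. The median log2 fold change was 0.61, with 23 of 25 positive, and 0.60 without stressed 2 and 3; 6 (24%) were higher at an unadjusted p under 0.05, against 5.33%, and 1 (4%, against 2.43%) without the 2 libraries. Sel1l, the adaptor of the ligase that clears misfolded proteins, lay at 37.8, 21.4 and 39.9 CPM in the controls and 23.4, 84.4, 93.4, 80.5 and 66.6 in the stressed libraries. Sel1l had a log2 fold change of 1.08 ± 0.37 (SE, unadjusted p = 0.016) and of 0.77 ± 0.39 in the reduced set (unadjusted p = 0.078). Pdia3, a disulfide isomerase, lay at 79.7, 44.8 and 86.9 CPM and 56.4, 114, 126, 166 and 159. Pdia3 had a log2 fold change of 0.82 ± 0.31 (SE, unadjusted p = 0.026) and of 0.83 ± 0.36 in the reduced set (unadjusted p = 0.044). Hspa5, the chaperone BiP, lay at 92.2, 64.5 and 114 CPM and 57.5, 154, 177, 171 and 209. Hspa5 had a log2 fold change of 0.77 ± 0.34 (SE, unadjusted p = 0.051) and of 0.67 ± 0.39 in the reduced set (unadjusted p = 0.12). Each of these 3 had stressed 2 to 5 above all controls; stressed 1 was below all controls for Hspa5 and within their range for the other two. Hsp90b1, the chaperone GRP94, and Eif2ak3, the stress sensor PERK, gave 0.69 ± 0.29 (reduced set 0.67 ± 0.33) and 0.81 ± 0.30 (reduced set 0.64 ± 0.34). Atf4, the transcription factor downstream of PERK, lay at 119, 156 and 85.4 CPM and 111, 68.7, 64.2, 114 and 99.8, lowest in stressed 2 and 3. Atf4 had a log2 fold change of -0.39 ± 0.25 (SE, unadjusted p = 0.14) and of -0.16 ± 0.21 in the reduced set (unadjusted p = 0.48).

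Lipid genes held a receptor with that pattern. Lrp8, a receptor for apolipoprotein E and reelin, lay at 19.5, 18.9 and 16.3 CPM in the controls and 15.3, 24.01, 31.2, 44.1 and 37.7 in the stressed libraries (log2 fold change 0.74 ± 0.29 (SE), unadjusted p = 0.028; reduced set 0.81 ± 0.32, unadjusted p = 0.031), below all controls in stressed 1 and above them in the other 4. Of 18 lipid transport genes 1 (5.56%, against 5.33%) was higher at an unadjusted p under 0.05, and 2 (11.1%, against 2.43%) in the reduced set. The list median was 0.29 and 0.40, 0.089 within the long and 0.35 within the short name form. The sterol and fatty acid synthesis list of 25 genes had a median of 0.27, or 0.24 in the reduced set and 0.081 with the length trend removed. The median of this list was 0.14 within the long and 0.28 within the short name form. Of its genes 1 (4%, against 5.33%) was higher at an unadjusted p under 0.05, and 5 (20%, against 2.43%) were in the reduced set.

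Trophic and synapse-organizing genes held some of the smaller p-values. Igf1, the growth factor, was rare and lay at 0.400, 0.350 and 1.02 CPM in the controls and 1.26, 1.69, 0.964, 1.74 and 2.07 in the stressed libraries. Igf1 had a log2 fold change of 1.39 ± 0.42 (SE, unadjusted p = 0.0074) and of 1.51 ± 0.47 in the reduced set (unadjusted p = 0.0091). Stressed 1, 2, 4 and 5 were above all controls, and stressed 3 was within their range. Il6st, the shared receptor gp130 of the interleukin 6 family, lay at 22.8, 15.1 and 21.6 CPM and 18.1, 28.2, 33.1, 46.1 and 46.9. Il6st had a log2 fold change of 0.80 ± 0.29 (SE, unadjusted p = 0.02) and of 0.88 ± 0.32 in the reduced set (unadjusted p = 0.022). Gfra1, the receptor of the factor GDNF, lay at 14.1, 9.92 and 14.8 CPM and 11.5, 25.1, 22.2, 41.3 and 20.3. Gfra1 had a log2 fold change of 0.90 ± 0.32 (SE, unadjusted p = 0.02) and of 0.90 ± 0.38 in the reduced set (unadjusted p = 0.04). Both were within the range of the controls in stressed 1 alone. Bdnf, much studied in stress, lay at 6.84, 12.1 and 18.6 CPM and 15.7, 26.9, 21.003, 7.71 and 12.7, with the groups overlapping. Nlgn3 and Nlgn1, neuroligins by which cells bind presynaptic neurexins, gave 0.89 ± 0.26 (reduced set 0.79 ± 0.29) and 0.71 ± 0.27 (reduced set 0.35 ± 0.23), and Gpc6, a glypican that recruits glutamate receptors to synapses, 0.84 ± 0.45 (reduced set 1.13 ± 0.44). Nlgn3 lay at 27.1, 19.3 and 26.2 CPM in the controls and 23.95, 44.99, 51.5, 58.8 and 44.4 in the stressed libraries, above all controls in stressed 2 to 5. In the trophic list 5 of 23 (21.7%, against 5.33% of all genes) were higher at an unadjusted p under 0.05. Without stressed 2 and 3 it was 6 (26.1%, against 2.43%). In the synapse-organizing list it was 2 of 25 (8%) and 5 (20%), against the same shares. The trophic list had a median of 0.43 and 0.53, 0.23 within the long and 0.62 within the short name form. The synapse-organizing list had 0.70 and 0.59, 0.57 within the long and 0.61 within the short form. Beside all these lists, the 15 microglia and macrophage markers tested of 15, which astrocyte ribosomes should lack, had a mean log2 CPM of 1.35, 0.039 and 0.91 in the controls and 0.26, 1.03, 0.85, 1.96 and 1.59 in the stressed libraries, highest in stressed 4 and 5. Csf1r, the receptor that defines microglia, lay at 4.60, 1.44 and 3.06 CPM and 1.18, 5.48, 4.25, 9.58 and 6.05. Csf1r had a log2 fold change of 0.81 ± 0.55 (SE, unadjusted p = 0.18) and of 0.86 ± 0.65 in the reduced set (unadjusted p = 0.22). Their part in the values above was not tested.

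**Figure D5:**
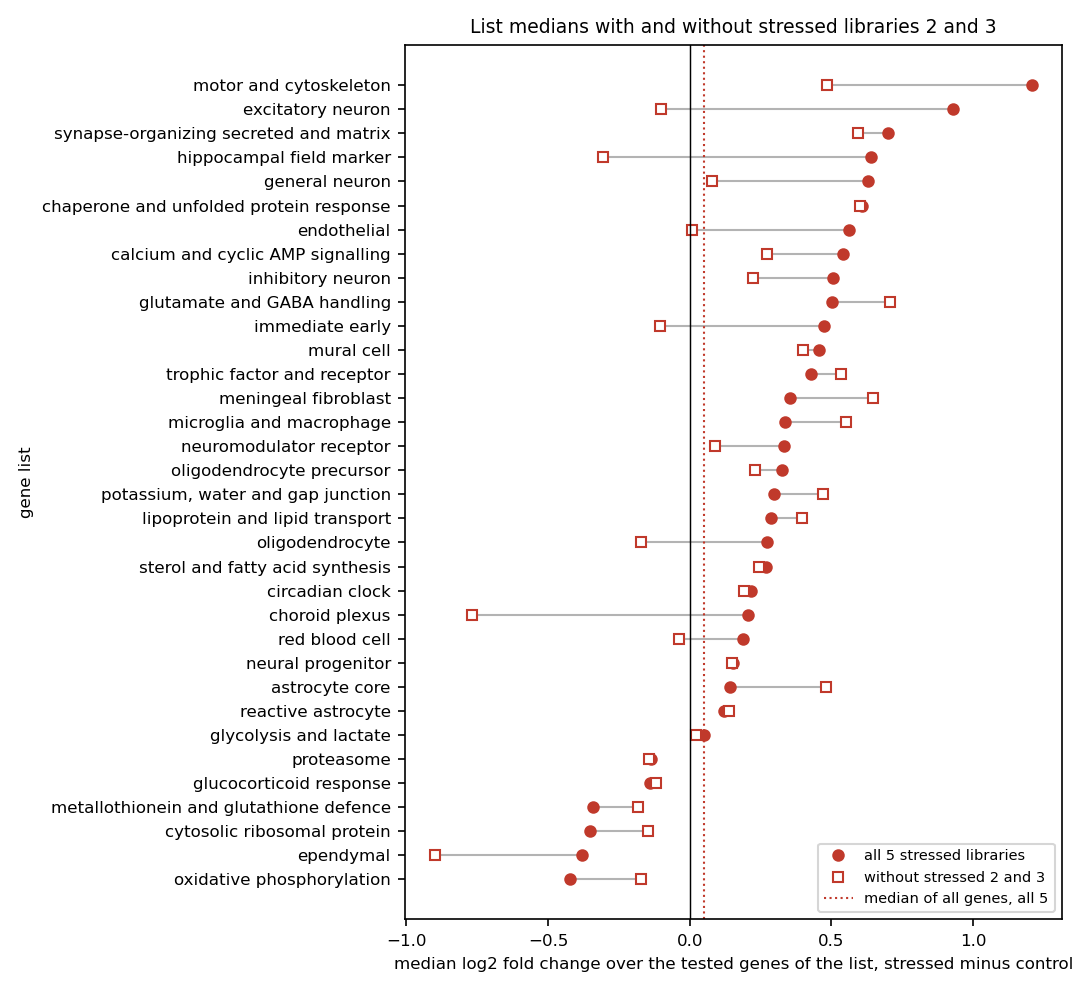
Median log2 fold change, stressed minus control, over the tested genes of each of 34 lists (rows), with all 5 stressed libraries (filled circles) and without stressed 2 and 3 (open squares); the dotted line is the median of all genes. The chaperone list kept 0.61 and 0.60, while the excitatory neuron list went from 0.93 to -0.10 and oxidative phosphorylation from -0.42 to -0.17.

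Lists of oxidative phosphorylation, the proteasome, ribosomal proteins and peroxide defence had negative medians. The glycolysis and lactate list did not, with a median of 0.050, or 0.022 in the reduced set. The proteasome, which degrades tagged proteins, was the 1 list of 34 whose mean level was lower in every stressed library than in every control. As for the clock list, the part of chance in this was not tested. The mean log2 CPM of the proteasome list was 7.83, 7.72 and 7.88 in the controls and 7.71, 7.65, 7.53, 7.69 and 7.65 in the stressed libraries. In the resilient libraries it was 7.93, 7.72 and 7.63. The distance was small, with a median log2 fold change of -0.14 (-0.15 without stressed 2 and 3). That median turned to 0.069 with the transcript length trend removed. Of 29 subunits 9 (31%) were below all controls in all 5 stressed libraries, against 2.08% of all genes. In stressed 1, 4 and 5 it was 9 (31%, against 2.74%). At an unadjusted p under 0.05, 2 (6.9%, against 3%) were lower, and 1 (3.45%, against 0.929%) in the reduced set. Psma3, a subunit of the core ring, lay at 239.8, 266 and 273 CPM in the controls and 217, 203, 184, 214 and 214 in the stressed libraries. Psma3 had a log2 fold change of -0.33 ± 0.12 (SE, unadjusted p = 0.019) and of -0.28 ± 0.12 in the reduced set (unadjusted p = 0.035). Psma7, another subunit of that ring, lay at 395, 360.3 and 371 CPM and 321, 257, 233, 307 and 318. Psma7 had a log2 fold change of -0.39 ± 0.15 (SE, unadjusted p = 0.021) and of -0.26 ± 0.12 in the reduced set (unadjusted p = 0.05). Neither overlapped between groups.

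The respiratory chain had more lower genes at an unadjusted p under 0.05 than any other of the 34 lists. Of 38 oxidative phosphorylation genes 37 had a negative log2 fold change, with a median of -0.42; 12 (31.6%) were lower at an unadjusted p under 0.05, against 3%, and 8 (21.1%) were below all controls in every stressed library, against 2.08%. Without stressed 2 and 3 the median was -0.17, 4 (10.5%, against 0.929%) were lower at that p and 8 (21.1%, against 2.74%) below all controls. Uqcr10, a small subunit of complex III, lay at 692, 739.8 and 652 CPM in the controls and 524, 323, 302, 502 and 572 in the stressed libraries. Uqcr10 had a log2 fold change of -0.64 ± 0.23 (SE, unadjusted p = 0.014) and of -0.39 ± 0.15 in the reduced set (unadjusted p = 0.023). Uqcrh, the hinge protein of the same complex, lay at 671, 685 and 562 CPM and 493, 313, 306, 508 and 532. Uqcrh had a log2 fold change of -0.57 ± 0.22 (SE, unadjusted p = 0.02) and of -0.33 ± 0.14 in the reduced set (unadjusted p = 0.039). Atp5e, the epsilon subunit of ATP synthase, lay at 304, 387 and 286 CPM and 252, 163, 162, 227 and 252 (log2 fold change -0.62 ± 0.20 (SE), unadjusted p = 0.0086; reduced set -0.43 ± 0.16, unadjusted p = 0.025), and Atp5l, subunit g, at 69.5, 72.5 and 65.3 and 50.9, 36.6, 35.9, 55.5 and 54.95. Atp5l had a log2 fold change of -0.56 ± 0.18 (SE, unadjusted p = 0.0078) and of -0.37 ± 0.13 in the reduced set (unadjusted p = 0.017). In these 4 genes stressed 2 and 3 were lowest and the groups did not overlap. With the length trend removed the list median was -0.076; the part of transcript length in the values above was not tested further.

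Cytosolic ribosomal proteins and peroxide defence followed. Of 44 ribosomal protein genes 0 were positive, with a median of -0.35 (-0.15 without stressed 2 and 3, -0.0078 with the length trend removed). At an unadjusted p under 0.05, 6 (13.6%, against 3%) were lower, and 5 (11.4%, against 2.08%) were below all controls. In the reduced set it was 2 (4.55%, against 0.929%) and 5 (11.4%, against 2.74%). Rpl32 lay at 82.7, 91.5 and 72.04 CPM in the controls and 68.8, 46.97, 46.1, 55.5 and 67.2 in the stressed libraries (log2 fold change -0.53 ± 0.17 (SE), unadjusted p = 0.0098; reduced set -0.37 ± 0.16, unadjusted p = 0.038), and Rps3 at 228, 200.1 and 224 and 181, 139, 129, 177 and 186. Rps3 had a log2 fold change of -0.42 ± 0.16 (SE, unadjusted p = 0.019) and of -0.27 ± 0.12 in the reduced set (unadjusted p = 0.048). Ribosomal protein genes have many near-identical processed copies, so reads that map to several places, 11.7 to 13.2% in these libraries, may have been lost from their counts. Gpx4, the peroxidase that protects membranes from lipid peroxides, lay at 1006, 1223 and 907 CPM and 741, 504, 483, 731 and 847. Gpx4 had a log2 fold change of -0.66 ± 0.22 (SE, unadjusted p = 0.01) and of -0.45 ± 0.17 in the reduced set (unadjusted p = 0.024). Gpx1, which clears hydrogen peroxide, lay at 208, 312 and 209.7 CPM and 204, 141, 134, 148 and 206. Gpx1 had a log2 fold change of -0.54 ± 0.20 (SE, unadjusted p = 0.019) and of -0.39 ± 0.20 in the reduced set (unadjusted p = 0.077). Both were below all controls in all 5 stressed libraries, and with Gsta4 and Gstm5, a pair of glutathione transferases, they made 4 of the 21 genes of the metallothionein and glutathione list (19%, against 2.08%). The list median was -0.34 and, in the reduced set, -0.18, with 5 genes below all controls (23.8%, against 2.74%).

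General and excitatory neuron markers were highest in stressed 2 and 3, and motor and cytoskeleton genes were above all controls on average in stressed 2, 3 and 4. The general neuron markers had a mean log2 CPM of 5.80, 5.30 and 6.64 in the controls and 6.07, 7.27, 7.19, 6.42 and 5.80 in the stressed libraries. Of 23 motor and cytoskeleton genes all 23 were positive, with a median of 1.21 and 11 (47.8%, against 5.33%) higher at an unadjusted p under 0.05. Without stressed 2 and 3 the median was 0.48 and the count 1 (4.35%, against 2.43%). With the length trend removed the median was 0.57. The mean log2 CPM of that list was 5.98, 5.02 and 6.80 in the controls and 5.54, 7.90, 7.99, 7.32 and 6.38 in the stressed libraries. Macf1, a giant linker of microtubules and actin, lay at 24.5, 10.03 and 25.96 CPM in the controls and 14.7, 68.1, 79.6, 74.4 and 37.1 in the stressed libraries. Macf1 had a log2 fold change of 1.44 ± 0.46 (SE, unadjusted p = 0.013) and of 1.04 ± 0.50 in the reduced set (unadjusted p = 0.064). Ank2, an ankyrin that ties membrane proteins to the cytoskeleton, lay at 394, 301 and 345 CPM and 365, 536, 659, 673 and 525. Ank2 had a log2 fold change of 0.67 ± 0.22 (SE, unadjusted p = 0.013) and of 0.58 ± 0.24 in the reduced set (unadjusted p = 0.037). Both had stressed 1 within the range of the controls and the other 4 above. Myo9a gave 1.00 ± 0.34 (reduced set 0.59 ± 0.31), and Myo6, a myosin of endocytosis, was above all controls in every stressed library, at 109.5, 84.3 and 104 CPM and 115, 136, 137, 135 and 128. Myo6 had a log2 fold change of 0.39 ± 0.15 (SE, unadjusted p = 0.022) and of 0.34 ± 0.16 in the reduced set (unadjusted p = 0.058). The excitatory neuron list had a median of 0.93 with all libraries and -0.10 without stressed 2 and 3, and general neuron markers 0.63 and 0.077. Camk2a, a kinase of excitatory neurons, lay at 76.3, 63.04 and 317 CPM and 104, 937, 969, 286 and 128 (log2 fold change 1.67 ± 0.76 (SE), unadjusted p = 0.063; reduced set 0.18 ± 0.59, unadjusted p = 0.77), with control 3 above stressed 1, 4 and 5. Gap43, a growth cone protein, was the 1 of 16 general neuron markers (6.25%, against 1.14% of all genes) above all controls in all 5 stressed libraries. It lay at 33.96, 18.4 and 34.1 CPM and 38.1, 47.8, 35.9, 42.5 and 39.96. Gap43 had a log2 fold change of 0.50 ± 0.22 (SE, unadjusted p = 0.043) and of 0.47 ± 0.24 in the reduced set (unadjusted p = 0.08). Map2, a dendritic protein, lay at 103, 101 and 129 CPM and 109, 189, 231, 176 and 142. Map2 had a log2 fold change of 0.61 ± 0.21 (SE, unadjusted p = 0.016) and of 0.35 ± 0.17 in the reduced set (unadjusted p = 0.073). The part of neuronal RNA in the values of the other lists was not tested.

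Other lists differed by single libraries. Stressed 4 was the lowest of all 11 libraries in the hippocampal field markers, whose mean log2 CPM was 3.16, 3.18 and 4.35 in the controls and 3.63, 5.03, 4.86, 2.69 and 3.47 in the stressed libraries. The same library had the most Drd1 and Drd2, dopamine receptors that are abundant in the striatum: Drd1 lay at 0.840, 0.428 and 1.33 CPM and 0.993, 2.20, 2.53, 6.67 and 1.08 (log2 fold change 1.64 ± 0.61 (SE), unadjusted p = 0.025; reduced set 1.73 ± 0.72, unadjusted p = 0.039) and Drd2 at 0.0400, 0.506 and 0.665 and 0.955, 1.05, 0.573, 4.23 and 0.663. Drd2 had a log2 fold change of 1.87 ± 0.88 (SE, unadjusted p = 0.061) and of 2.25 ± 0.95 in the reduced set (unadjusted p = 0.04). The choroid plexus list had a mean log2 CPM of 0.077, 6.53 and 6.59 in the controls and 2.31, 6.59, 7.21, 0.50 and 6.61 in the stressed libraries, and a median log2 fold change of 0.21 or, without stressed 2 and 3, -0.77. Opalin, a myelin protein, was below all controls in all 5 stressed libraries, at 14.2, 26.6 and 16.3 CPM and 13.03, 12.9, 13.6, 10.02 and 12.8 (log2 fold change -0.61 ± 0.21 (SE), unadjusted p = 0.013; reduced set -0.68 ± 0.25, unadjusted p = 0.02), whereas Mbp, the myelin basic protein, lay at 176, 163 and 307 and 128, 646, 517, 661 and 208 (log2 fold change 1.00 ± 0.48 (SE), unadjusted p = 0.068; reduced set 0.61 ± 0.51, unadjusted p = 0.26), high in stressed 2, 3 and 4.

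Resilient mice, which had the same defeats, shared the 3 controls with this comparison, so their values stand beside those of the stressed mice and are not a second test. The controls also differed in the second index from the resilient as from the stressed libraries. Resilient against control also called 0 of 15758 genes by edgeR, with 225 at an unadjusted p under 0.05. Cdh22 gave 0.14 ± 0.30, Zfp9 0.17 ± 0.19 and Slc17a6 -0.50 ± 0.30 in resilient against control. Prmt1 lay at 86.6, 82.2 and 84.2 CPM in the resilient libraries, below all controls as in the stressed libraries, and Prdx5 at 458, 427 and 490.3, likewise. The clock list had a median log2 fold change of 0.18, the proteasome -0.034, oxidative phosphorylation -0.16 and the chaperones -0.28. Ciart lay at 14.7, 17.6 and 18.1 CPM and Dbp at 254, 288 and 318 in the resilient libraries, and Cry2 at 266, 237 and 163, of which resilient 3 was below all controls.

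Whether the hippocampus differed from the other regions was tested as the stress effect in the hippocampus minus the mean stress effect of prefrontal cortex, nucleus accumbens and caudate putamen, in 1 fit of all 40 libraries; whether regions came from the same mice is not given in the sources used here. It called 0 of 16759 genes (0%) by edgeR, with a smallest adjusted p of 0.84 and 908 genes at an unadjusted p under 0.05, and 0 by DESeq2, with 1082. Without stressed 1 it called 1 gene, Bnip3, a mitochondrial protein of mitophagy, which was named after its value was seen: its difference was -0.54 with an adjusted p of 0.041, against -0.41 and 0.84 with all libraries. Among the genes above, the difference was 1.47 for Slc17a6 (unadjusted p = 0.0072), -0.58 for Churc1 (unadjusted p = 0.0016) and -0.33 for Psma3 (unadjusted p = 0.0019). For the clock genes Ciart and Nr1d2 it was -0.39 (unadjusted p = 0.13) and 0.34 (unadjusted p = 0.089). All of these genes were named for their small p in stressed against control hippocampus. The difference reuses those hippocampal libraries, so its p-values for these genes are a description and not a second test.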

How the data were processed

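The members of this comparison and its gene lists were chosen with earlier results of these data known. The authors deposited raw counts of reads per gene, aligned with STAR 2.0.0e and counted with HTSeq on mm10, per the submitters' processing notes; which HTSeq version and annotation were used, and whether strand was read, is not given in the sources used here. Besides the overlaps given above, exons of Pdia3, Hsp90b1, Sult1a1, Csf1r and Rpl32 overlap a counted gene on the opposite strand. These are Catsper2, 1810014B01Rik, Sgf29, Hmgxb3 and Cand2 in that order. Exons of Rpl32 also overlap the counted gene Snora7a on the same strand. The closing summary lines and a row that names no gene (0 to 5 counts) were left out. From the counts, edgeR 4.0.16 (R 4.3.3) was run on the 11 hippocampal libraries (filterByExpr, TMM, robust quasi-likelihood F test), with Benjamini-Hochberg adjustment over all genes tested and SEs from the fitted weights; the region difference used all 40 libraries. DESeq2 1.42.0 and the other settings given at the end were alternatives. CPM are relative to the TMM-scaled library size; log2 CPM used a prior count of 2. Both tools were tested on simulated data. The simulation gave every gene the same spread and no structure among the libraries of a group. It therefore does not show how the tools behave on libraries as uneven as these. Genes were named by rule: up to 5 per direction with the smallest p with and without stressed 2 and 3, and up to 4 per list (154 genes, many given only through their lists and some not reported here); 17 of the 89 genes with values, and Bnip3, lie outside the rule and were chosen after their values were seen. Replicates are separate pools of mice, and depth was 21772362 to 30302385 counts per hippocampal library. Gene coordinates and promoters are RefSeq's, GRCm38.p6; transcript lengths are GENCODE M21's, for 94.5% of genes.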

Additional observations from a re-analysis of the deposited data

Results flagged for a closer look

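In 3 genes of the lists 1 of the 5 stressed hippocampal libraries, stressed 4, stood further from the others than Dixon's limit allows. Drd1, a dopamine receptor of striatal neurons, lay at 6.67 CPM there and at 0.993 to 2.53 in the other 4. Drd2, another dopamine receptor, lay at 4.23 CPM there and at 0.573 to 1.05 in the others. Opalin, a myelin protein, lay at 10.02 CPM there and at 12.8 to 13.6 in the others. The 89 genes with values were examined, each in the 5 stressed libraries, since the other groups were too small, and chance flags about 1 in 20 such groups.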

How the results depend on the processing

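Stressed against control called 0 genes, higher or lower, and 0 list members in all 19 alternatives tried: 11 other settings, of which DESeq2 without stressed 2 and 3 was chosen after seeing the data, and 8 that leave out 1 library each. The stress effect of the hippocampus against the other regions ranged from 0 to 1 called genes when 1 library was left out, and 1 (Bnip3) was called without stressed replicate 1; in the other alternatives it was 0. Replicate numbers did not pair the libraries: the deviations of control and stressed libraries with the same number correlated at 0.16, -0.081 and 0.74. With the number as a replicate block, 0 genes were called, with 2876 at an unadjusted p under 0.05, and the log2 fold change turned to -0.12 for Heyl, -0.11 for P4ha3, -0.015 for Gja1, -0.045 for Aqp4, -0.016 for Kcnj16, -0.00021 for Hapln1, -0.027 for Nr1d1, -0.034 for Dbp, -0.033 for Bhlhe40 and -0.16 for Bhlhe41; stressed 4 and 5 have no partner in that fit and do not enter the contrast. In it 7 of 34 list medians had the other sign, the astrocyte core at -0.29 and the potassium list at -0.16 among them. Lipid transport at -0.094 and sterol and fatty acid synthesis at -0.017 were others. The synapse-organizing list kept its sign in that fit, at 0.14 against 0.70 in the main fit. With the transcript length trend removed Hlf was at -0.11 and Bhlhe41 at -0.19, and Bhlhe41, when 1 library was left out, ranged from -0.015 (without control replicate 3) to 0.23 and was at -0.0076 without stressed replicate 5. The other 1449 of 1463 alternative values of single genes kept their direction, but many changed in size. With the length trend removed, Churc1 was at -0.31, Phyhd1 at -0.57, Ccdc163 at -0.57, Rbks at -0.28, Prdx5 at -0.27, Prmt1 at -0.25 and Rilp at -0.50. Cdh22 was at 1.09, Slc17a6 at 0.99, Adgrl3 at 0.82, Robo1 at 1.15, Zfp9 at 0.48, Lhcgr at 0.94 and Heyl at 0.47. Mid2 was at 0.32 and Nebl at 0.16. Of these smallest-p genes only P4ha3 was larger than in the main fit, at 0.42 against 0.38. Of 646 alternative list medians 69 moved by more than the spread of the controls, and with other size factors (RLE) 0 lists had the other sign. Causes were not tested. Within the short name form the control arm is 1 library, assumed to vary like the others. Stressed 2 and 3 alone against control was not run, since those libraries would be picked by their values. The median SE of a log2 fold change was 0.27 here, in the fit of the 11 hippocampal libraries. In prefrontal cortex, with the same numbers of stressed and control libraries, it was 0.24 in the fit of all 40 libraries. That fit called 1620 higher and 1258 lower genes in prefrontal cortex. The fits differ in libraries, genes tested and estimate of spread, so these SEs and counts are not a like comparison of the regions.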
